A study of Saccharomyces cerevisiae with 117 samples.

Results

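The genes described here encode the nuclear part of the mitochondrial respiratory chain and ATP synthase of the budding yeast *Saccharomyces cerevisiae*. They are 39 of the 6420 genes counted in each cell and were chosen by systematic identifier from known function, without use of their levels. They comprise 3 subunits of succinate dehydrogenase (complex II), 3 single-subunit NADH dehydrogenases, 9 subunits of the cytochrome bc1 complex (complex III), 2 isoforms of cytochrome c, 9 subunits of cytochrome c oxidase (complex IV) and 13 subunits of ATP synthase (complex V). SDH1, COX26 and ATP19, which also encode structural subunits, are not among the 39.

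The study sequenced full-length mRNA of 117 single cells of the laboratory strain S288C in 2 batches. Every cell came from a log-phase culture in rich glucose medium (YPD) that started from 1 clone, had its wall removed with Zymolyase and was then kept as a spheroplast in a defined medium. The groups used here are glucose starvation (GS, the medium without glucose, with 1 M sorbitol), amino acid starvation (AAS, without amino acids, with sorbitol), hypotonic (with glucose and amino acids, without sorbitol) and isotonic (with all of them). Exposure lasted at least 30 min and at most 5 h by the labels, while the methods of the study give a shorter upper limit. Individual cells carry no exposure time. Batch 2 gave 21 GS and 17 isotonic cells, and batch 1 gave 18 AAS, 12 hypotonic and 16 isotonic cells that passed the quality filter of the study. GS was therefore set against isotonic cells of batch 2, and AAS and hypotonic cells against those of batch 1, which those 2 comparisons share. No separate cultures are named, so each group counts as 1 sample: fold changes are descriptions without a p-value, and the spread given is that between cells.

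In the respiratory chain, electrons from succinate and NADH pass through ubiquinone to complex III, over cytochrome c to complex IV and on to oxygen, and the proton gradient so built drives ATP synthase. Budding yeast has no proton-pumping complex I and uses single-subunit NADH dehydrogenases in its place. The yeast ferments glucose even in air, and many of these genes are known to be repressed by glucose and activated, through the CCAAT-binding Hap complex, when glucose is gone. The core subunits that mitochondrial DNA encodes were not analysed here.

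Depth and the number of genes seen differed between groups. Reads on genes per cell ran from 705807 to 2535593 in GS cells and from 14245 to 1133518 in isotonic cells of batch 2. They ran from 3112955 to 8502504 in AAS cells, from 4297691 to 7870247 in hypotonic cells and from 3603505 to 55179414 in isotonic cells of batch 1. Spike-in RNA made up, in the median cell, 40.5% of the reads on genes and spike-ins in GS cells and 77.2% in isotonic cells of batch 2. Genes with a read numbered 1332 in the median GS cell and 1047 in the median isotonic cell of batch 2, and 5118, 3255 and 4150 in the median AAS, hypotonic and isotonic cell of batch 1.

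Respiratory genes took up a larger part of the mRNA in GS cells than in isotonic cells. The 39 genes held 0.055% of the reads on genes in the lowest GS cell, 0.986% in the median and 2.03% in the highest, against 0.00449%, 0.287% and 1.22% in isotonic cells of batch 2. The means were 0.89% ± 0.447 in GS and 0.323% ± 0.289 in isotonic cells (SD over 21 and 17 cells). Of the GS cells, 18 lay above the isotonic median, 2 above the highest isotonic cell, and in 84.0% of all pairs of a GS and an isotonic cell the GS cell was higher, so the groups overlapped.

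**Figure D1:**
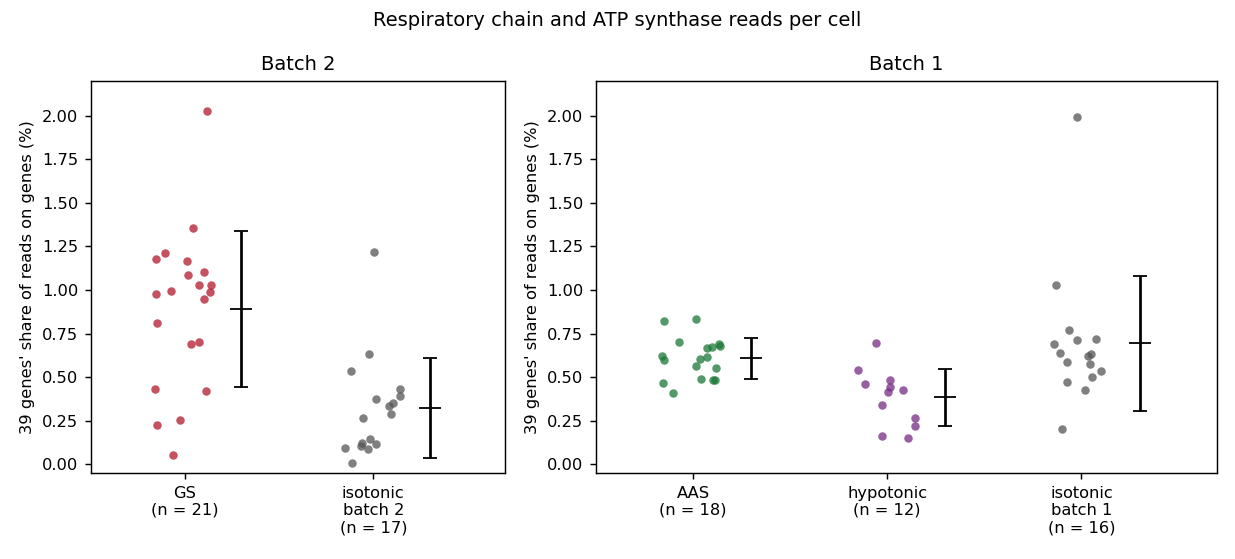
Share of the reads on genes (percent, linear axis) that fell on the 39 respiratory chain and ATP synthase genes, 1 point per cell, with batch 2 on the left and batch 1 on the right. Dashes with bars give the mean and SD over cells: 0.89% in GS against 0.323% in isotonic cells of batch 2, and 0.609% in AAS and 0.384% in hypotonic against 0.694% in isotonic cells of batch 1, whose highest cell reached 1.99%.

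Gene by gene, fold changes are log2 ratios of mean CPM (reads per 1000000 reads on genes, each cell weighted equally, with 1 CPM added) among genes detected in 20% or more of those cells. In GS cells 34 of the 39 genes passed that filter. Of these, 28 were higher than in isotonic cells by 2-fold or more and 2 were lower by as much, where 44.1% and 26.2% of the 2106 genes compared were past 2-fold in those directions. Without the highest cell of each group, 28 of those genes were still 2-fold higher and 1 lower, beside 39.6% and 21.6% of all genes. Their median log2 ratio, 3.02, stood against 0.64 for all genes compared, and it stayed at 3.02 when the genes without an isotonic read were set to their lower bound. The 20% filter favours genes that are frequent in the deeper group: 16 of the 34 had a read in fewer than 20% of the isotonic cells. CYC1, CYC7, NDI1, NDE1 and NDE2 did not pass and are described with their own values.

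A count that uses no such filter covers all 39 genes. With each cell of batch 2 thinned to 10000 reads on genes, 34 of the 39 had a read in a larger share of GS than of isotonic cells, 3 in a smaller share and 2 (CYC1 and COX7) in none of either. Over all 4341 genes with a read in the thinned cells, 50.6% were more frequent in GS and 49.3% less frequent. A thinned GS cell held a read of 2 to 22 of the 39 genes, with a median of 11, and a thinned isotonic cell of 0 to 8, with a median of 5, while the median cell showed 9.91% of all genes in GS and 8.19% in isotonic. Unthinned, the median was 21 of the 39 genes in GS cells and 9 in isotonic cells.

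**Figure D2:**
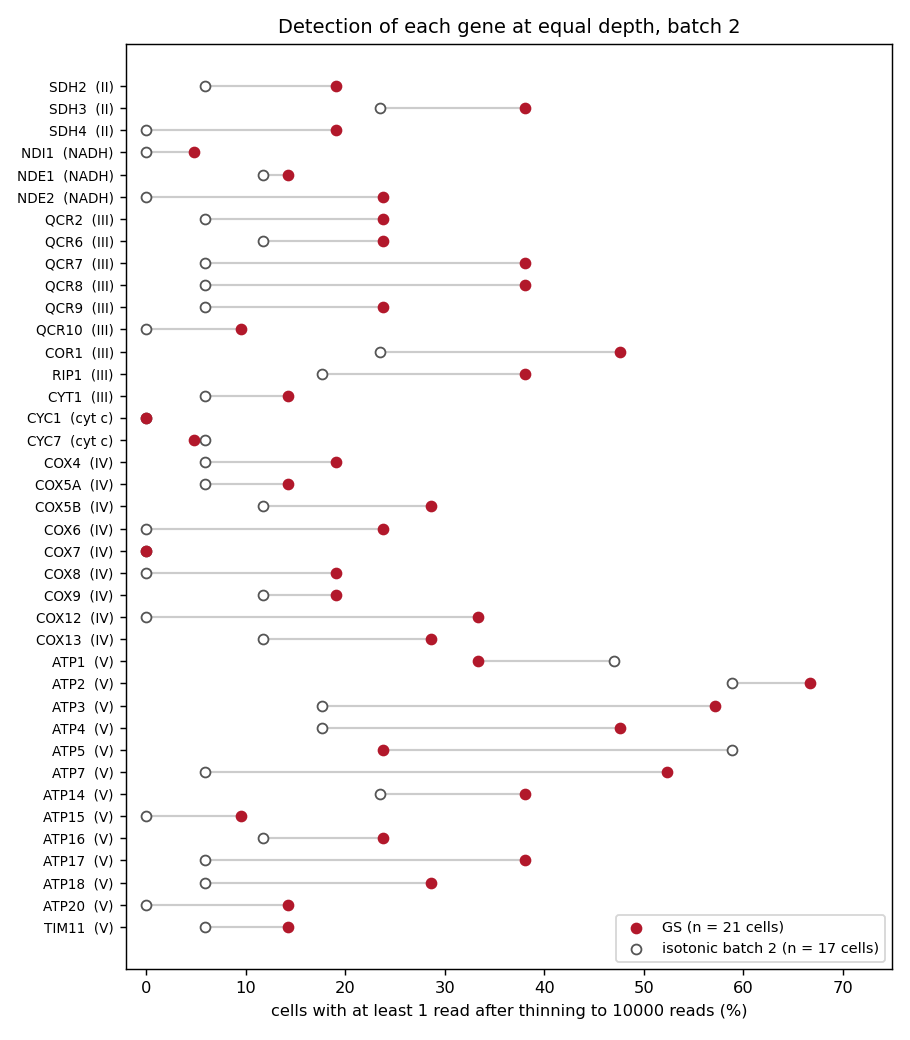
Percent of cells with at least 1 read of each gene after every cell of batch 2 was thinned to 10000 reads on genes (filled, 21 GS cells; open, 17 isotonic cells), with genes grouped by complex from II at the top to V at the bottom. GS lies to the right of isotonic for 34 of 39 genes, to the left for ATP1, ATP5 and CYC7, and both lie at 0 for COX7 and CYC1, where the filled point hides the open one.

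What many of these genes have in common in sequence is a CCAAT box, the core of the site of the Hap complex, near their start. In the window from 250 bases before to 50 bases after the start of the coding sequence, CCAAT occurred on either strand in 32 of the 39 genes (82.1%), against 43.3% of the 5979 protein-coding genes with such a window. It was found in 3 of 3 complex II, 7 of 9 complex III, 8 of 9 complex IV and 12 of 13 complex V genes, in 2 of 3 NADH dehydrogenase genes and in neither cytochrome c gene. ATTGTT, the core of the site of the hypoxic repressor Rox1, occurred in 16 of the 39 (41%) and in 35.2% of all windows. These are matches of letters and not shown binding sites. Below are the CCAAT matches of the gene with the largest change in GS in each of the 4 complexes, taken from the RefSeq R64 sequence and written along the coding strand, with the match in capitals (ATTGG is CCAAT on the opposite strand):

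SDH4, chrIV:817705-817733, + strand: ataagcattgagCCAATcgctgctgtttt

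QCR10, chrVIII:107615-107643, + strand: cgtgattttgatCCAATtaaaactaaata

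COX8, chrXII:910150-910178, - strand: aaacggtttgcaCCAATcatacgagagaa

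ATP7, chrXI:408150-408178, - strand: gtaaaagatacaCCAATtaccacttgctg

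ATP7, chrXI:408193-408221, - strand: ctcttcgatttgATTGGatatttgtcttg

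The matches end 229 bases before the start codon in SDH4, 195 in QCR10, 197 in COX8 and 173 for the first of the pair in ATP7. ATP5, the complex V gene that went the other way in GS, also holds a CCAAT, which ends 159 bases before its start codon.

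Complex II, which feeds electrons from succinate into ubiquinone and is shared with the citric acid cycle, was higher in GS for each of its 3 genes here. SDH4 (YDR178W), a membrane anchor subunit, lay between 0 and 181 CPM with a median of 0 in GS cells, and between 0 and 0.882 CPM with a median of 0 in isotonic cells. A read was found in 10 of 21 GS cells (47.6%, exact 95% interval 25.7 to 70.2%) and in 1 of 17 isotonic cells (5.88%, 0.149 to 28.7%), and every GS cell with a read lay above the highest isotonic cell. As the isotonic cells held a single read of SDH4, its ratio of summed reads, 343, has a counting interval of 61.5 to 13555. SDH3, the other anchor, had the highest level of the 3, with a mean of 1286 CPM in GS and 275.3 CPM in isotonic cells (log2 fold change 2.22). SDH2, the iron-sulfur subunit, averaged 61.4 CPM in GS and 1.92 CPM in isotonic cells (4.42). All such intervals, and all lower bounds from summed reads, cover counting error only, since PCR copies of 1 molecule cannot be told apart.

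In complex III, 8 of 9 genes were at least 2-fold higher in GS and the median log2 fold change was 3.21. QCR10 (YHR001W-A), a small subunit, lay between 0 and 285 CPM with a median of 2.8 in GS cells. It had a read in 15 of 21 GS cells and in 0 of 17 isotonic cells, which, at a floor of 3 cells, allows a share of up to 17.6% of cells with a read (this does not limit how many express the gene), and it was at least 76.5-fold higher by summed reads when 3 reads over the isotonic group are taken as the floor. QCR8, another small subunit, averaged 120 CPM in GS and 3.55 CPM in isotonic cells (4.73), and COR1, a core subunit, 570 CPM in GS against 60.9 CPM in isotonic (3.21). RIP1, the Rieske iron-sulfur protein, and CYT1, cytochrome c1, had log2 fold changes of 2.78 and 4.04. The exception was QCR2, the other core subunit, at 0.38: 96.5% of its isotonic CPM came from 1 cell, and without the highest cell of each group its log2 fold change was 4.29. Over 12 alternatives QCR2 ran from -1.30 to 4.29, was above 0 in 8 and at least 2-fold higher in 3.

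All 9 listed genes of complex IV, the terminal oxidase, were at least 2-fold higher in GS, with a median log2 fold change of 3.07. COX8 (YLR395C) lay between 0 and 335 CPM in GS cells and between 0 and 2.14 CPM in isotonic cells, with a median of 0 in both. It had a read in 7 of 21 GS cells, and 6 of them lay above the 1 isotonic cell with a read. On 2 isotonic reads, its ratio of summed reads of 200 has a counting interval of 55.2 to 1650. COX7 had a read in 9 GS cells and in 0 isotonic cells and was at least 28.1-fold higher by summed reads. The remaining genes, COX4, COX5A, COX5B, COX6, COX9, COX12 and COX13, had log2 fold changes between 1.47 (COX9) and 3.93 (COX4). Per cell, complex IV genes together held 0.0846% ± 0.136 of the reads on genes in GS and 0.00973% ± 0.0156 in isotonic cells (SD over cells), the largest ratio of means, 8.69, among the 4 multi-subunit complexes. That ratio was 5.67 for complex III, 5.01 for complex II and 1.72 for complex V. Ratios of medians over cells gave another order: 14.7 for complex III, 6.83 for complex IV and 3.73 for complex V. For complex II the isotonic median was 0. The highest isotonic share of complex V, 1.22%, was that of cell Y700, which had 98415 reads on genes.

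ATP synthase was less uniform. Of its 13 genes, 8 were higher in GS by 2-fold or more and 2 lower, and the complex had a median of 2.04. Its 2 largest CPM differences upward were in the peripheral stalk, which holds the catalytic head still against the rotor. ATP7 (YKL016C, subunit d) lay between 0 and 6339 CPM with a median of 119 in GS cells and between 0 and 183 CPM with a median of 0 in isotonic cells. The means of ATP7, 978 CPM in GS against 16.6 CPM in isotonic, gave a log2 fold change of 5.80, and 10 GS cells exceeded the highest isotonic cell. ATP4 (subunit b) averaged 1284 CPM in GS and 55.6 CPM in isotonic cells (4.51).

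Another stalk gene went the other way. ATP5 (YDR298C), the subunit that joins the stalk to the catalytic head, lay between 0 and 5327 CPM with a median of 3.1 in GS cells and between 0 and 11706 CPM with a median of 187 in isotonic cells. Its means, 499 CPM in GS against 1663 CPM in isotonic, gave a log2 fold change of -1.73, which became -2 without the highest cell of each group. After thinning to 10000 reads on genes, which leaves the spike-in share unequal, a read of ATP5 was found in 5 of 21 GS cells and in 10 of 17 isotonic cells. Per kb of coding length ATP5 was the highest of the 39 genes in isotonic cells of batch 2, at 2602 CPM per kb against 619 CPM per kb for ATP14, the next. In GS it stood sixth, at 782 CPM per kb, below SDH3, ATP7, ATP4, COX5B and ATP14.

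The catalytic alpha and beta subunits stayed under 2-fold. ATP1 (alpha subunit) averaged 280 CPM in GS and 274 CPM in isotonic cells (log2 fold change 0.03), and ATP2 (beta subunit) 317 CPM in GS against 165 CPM in isotonic (0.94). ATP14, the remaining stalk subunit, averaged 328 CPM in GS against 232 CPM in isotonic (0.50). Of the rotor genes, ATP3 (gamma subunit) was higher, at 345 CPM in GS against 59.1 CPM in isotonic (2.53), and ATP16 and ATP15 (delta and epsilon) had log2 fold changes of 1.83 and 2.04. Of the membrane subunits, ATP17, ATP18 and ATP20 were higher by 2.72, 3.54 and 4.70. TIM11 (subunit e) was 2-fold lower by its mean, 13.2 CPM in GS and 27.6 CPM in isotonic cells. That value rests on isotonic cell Y709, which held 94.8% of the isotonic CPM: with the highest cell of either group left out, TIM11 was at 1.79.

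**Figure D3:**
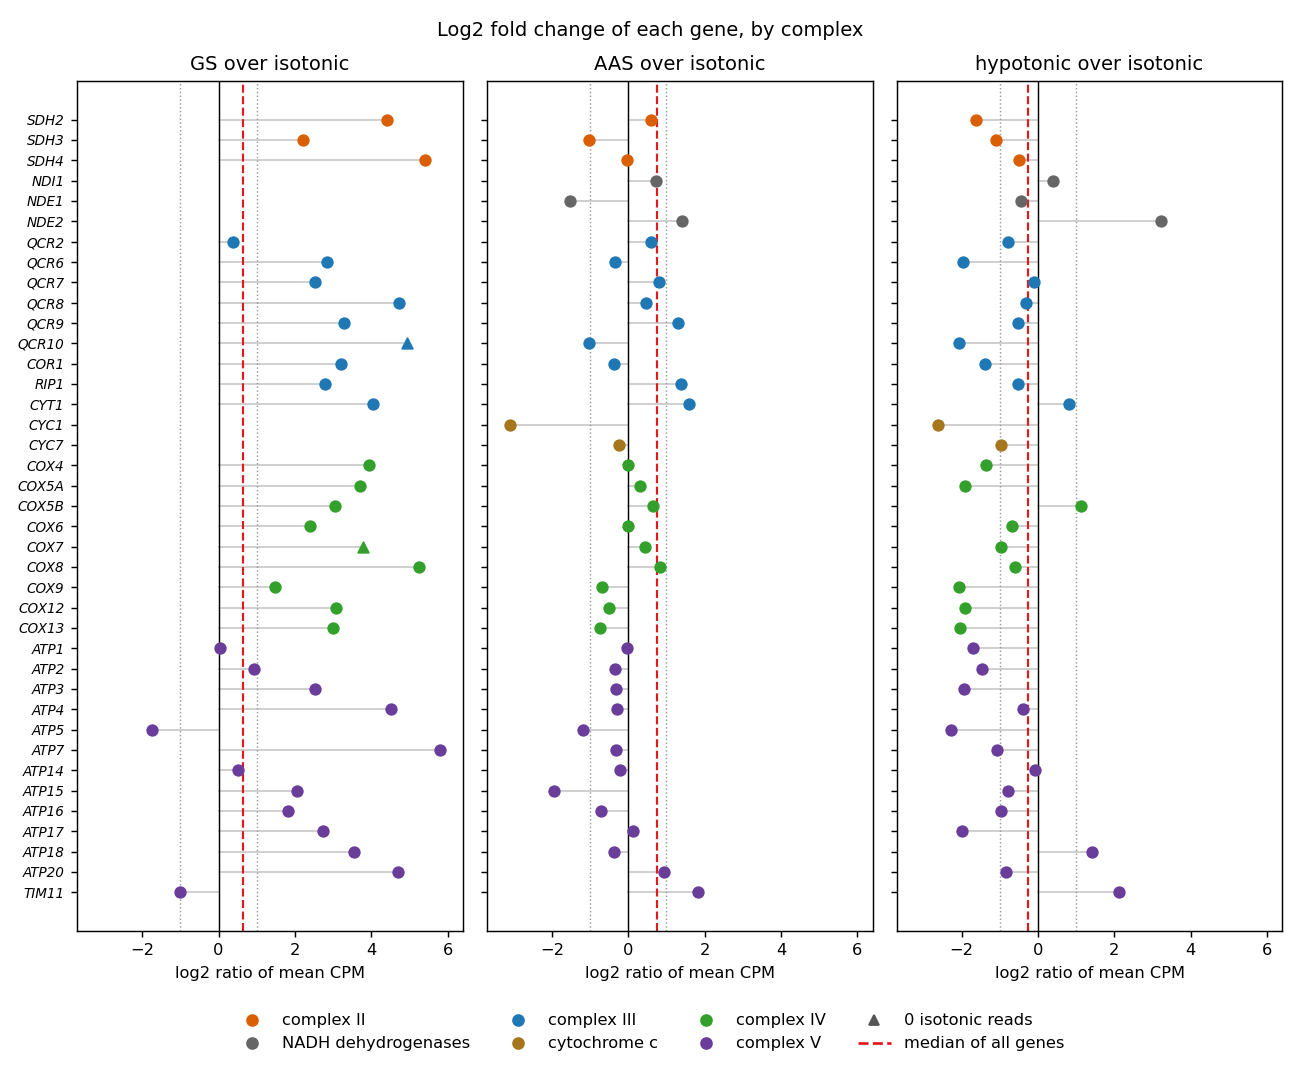
Log2 ratio of mean CPM of each gene, treated over isotonic cells, for GS (34 genes), AAS and hypotonic (39 genes each), ordered and coloured by complex, with a red dashed line at the median of all genes compared (0.64, 0.74 and -0.26) and dotted lines at 2-fold. Triangles mark genes without an isotonic read. Most genes lie right of 2-fold in GS, around 0 in AAS and left of 0 in the hypotonic comparison.

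The 5 genes under the detection filter in batch 2 were rare in both groups. NDE2, one of the pair of dehydrogenases that oxidise cytosolic NADH at the outer face of the inner membrane, had reads in 6 of 21 GS cells, with 4954 CPM in the highest, and in 0 of 17 isotonic cells. By summed reads NDE2 was at least 1632-fold higher. Its paralog NDE1 had reads in 4 GS and 3 isotonic cells and means of 39.9 CPM in GS against 41.9 CPM in isotonic. NDI1, the matrix-facing enzyme, had reads in 5 GS cells, of which 1 held 91% of the CPM, and in 2 isotonic cells. CYC7 had reads in 3 GS cells and 1 isotonic cell, and CYC1 in 1 GS cell and 0 isotonic cells.

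Single cells dominated many of these means. The highest cell held a median of 34.4% of a gene's summed CPM in GS and 64.8% in isotonic cells of batch 2, where 25 of the 35 genes with reads had more than 50% in 1 cell. In batch 1 the median was 13.5% in AAS, 41% in hypotonic and 35.1% in isotonic cells. The map of levels by cell shows this as scattered bright points in batch 2 and filled rows in AAS.

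**Figure D4:**
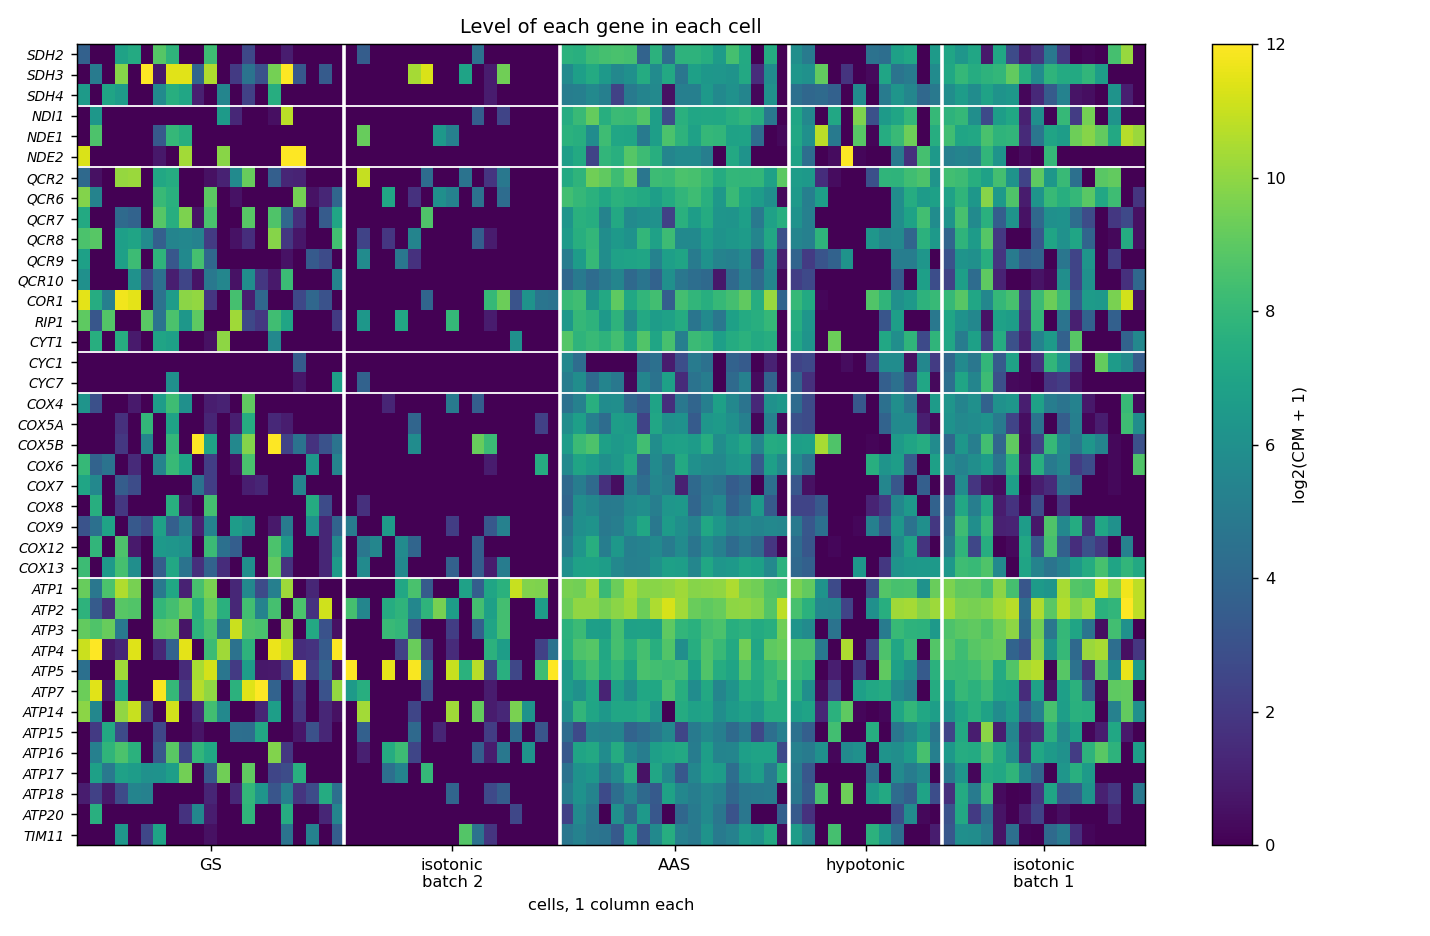
Level of each of the 39 genes (rows, by complex) in each of the 84 cells (columns), as log2(CPM + 1) on a colour scale from 0 to 12, in the order GS, isotonic batch 2, AAS, hypotonic and isotonic batch 1. GS cells had a read of 11 to 31 of the genes and isotonic cells of batch 2 of 1 to 21, whereas AAS cells had a read of 26 to 39, hypotonic cells of 9 to 39 and isotonic cells of batch 1 of 20 to 39.

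In AAS the median respiratory gene was lower in log2 fold change than the median of all genes, but not in detection at equal depth. Its position against 0 depended on the processing. All 39 genes were compared: 5 were higher by 2-fold or more and 6 lower, where 43.2% and 13.8% of the 5825 genes were. Of these, 5 were still 2-fold higher and 2 lower without the highest cell of each group, against 42.3% and 9.89% of all genes, and with those cells left out 12 of the 39 were 2-fold higher in all. The median log2 fold change was -0.04, against 0.74 for all genes, a difference of -0.78. That difference lay between -1.07 and -0.55 in every one of the 17 alternatives tried, but the values themselves moved. With differences of mean log2(CPM + 1) the median was 1.39, against 1.97 for all genes, and 24 of the 39 were 2-fold higher. With summed reads scaled by DESeq2 the median was -0.96 and 18 were lower. With summed reads scaled by TMM, which puts the median of all genes at 0.091, 0 of the 39 were 2-fold higher and 17 lower. The 39 genes held 0.407% of the reads in the lowest AAS cell, 0.609% in the median and 0.835% in the highest, against 0.201%, 0.625% and 1.99% in isotonic cells. The AAS range lay inside the isotonic range, and the SD over cells was 0.118 in AAS and 0.389 in isotonic cells. At 1000000 reads per cell, 34 of the 39 genes had a read in a larger share of AAS than of isotonic cells. A smaller share was found for 2, where 86.4% of the 6086 genes with a read were more frequent in AAS and 9.65% less. The median thinned cell showed 75.9% of all genes in AAS and 50% in isotonic.

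Complex III held 3 of the 5 genes that were higher in AAS. They were 33.3% of its 9 genes, where 43.2% of all genes were higher. Its median log2 fold change, 0.60, lay below that of all genes, 0.74. CYT1 (YOR065W) lay between 0 and 441 CPM with a median of 209.4 in AAS cells and between 0 and 474 CPM with a median of 22.6 in isotonic cells, which gave 1.60, with the AAS cell higher in 84.2% of pairs. RIP1 had medians of 113 CPM in AAS, against 12.3 CPM in isotonic cells (1.38, but -0.049 with DESeq2 scaling of summed reads), and QCR9 of 58 CPM in AAS, against 8.37 CPM in isotonic (1.31). QCR10 was -1.03 by its mean, but 64.8% of its isotonic CPM came from cell A27, and without the highest cell of each group it was 0.20. Complex IV had no gene past 2-fold: its 9 genes ran from -0.74 (COX13) to 0.83 (COX8), with a median of 0.00.

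Cytochrome c, the carrier between complexes III and IV, gave the largest difference in AAS. CYC1 (YJR048W), the major isoform in air, lay between 0 and 46.1 CPM with a median of 3.84 in AAS cells and between 0 and 570 CPM with a median of 39.4 in isotonic cells. A read was found in 11 of 18 AAS cells and in 15 of 16 isotonic cells, the log2 fold change was -3.10, and it was the only one of the 39 genes that stayed past 2-fold in AAS in all 17 alternatives. CYC7, the minor isoform, had a higher median in AAS (22.8 CPM) than in isotonic cells (0.386 CPM), while its means, 26.6 CPM in AAS against 31.9 CPM in isotonic, gave -0.25.

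Among the NADH dehydrogenases of AAS cells, NDE1 (YMR145C) was lower and NDE2 higher. NDE1 lay between 0 and 388 CPM with a median of 128 in AAS cells and between 1.71 and 1610 CPM with a median of 233 in isotonic cells (-1.52). The NDE2 median was 62.7 CPM in AAS, against 0.0301 CPM in isotonic cells, and the ratio of means (1.40) turned to -0.74 with TMM and -0.82 with DESeq2 scaling of summed reads. NDI1 was at 0.72. In complex II, SDH3 was at -1.04 and came to -0.89 without the highest cells, with SDH4 at -0.04 and SDH2 at 0.59.

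Of the ATP synthase genes in AAS, TIM11 (YDR322C-A) was higher, at 0.177 to 178 CPM with a median of 37 in AAS cells against 0 to 61 CPM with a median of 1.26 in isotonic cells (1.84). ATP5 and ATP15 were lower by their means (-1.17 and -1.94) but not past 2-fold without the highest cell of each group (-0.72 and -0.91). The other 10 genes lay between -0.72 (ATP16) and 0.94 (ATP20). ATP1 and ATP2, the catalytic pair, lay near their isotonic means, at 870 and 1024 CPM in AAS cells against 882 and 1290 CPM.

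Hypotonic cells had less respiratory chain and ATP synthase mRNA for their reads than isotonic cells. The 39 genes held 0.149% of the reads in the lowest hypotonic cell, 0.421% in the median and 0.697% in the highest, with a mean of 0.384% ± 0.163 (SD over 12 cells) against 0.694% ± 0.389 in the isotonic cells already given. Of the hypotonic cells, 1 of 12 lay above the isotonic median and 2 below the lowest isotonic cell, and in 15.1% of pairs the hypotonic cell was higher. Without the highest isotonic cell, G56, the isotonic mean was 0.607%.

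Gene by gene, 17 of the 39 were lower in hypotonic cells by 2-fold or more and 4 higher, where 30.1% and 21.2% of the 5600 genes compared were. Without the highest cell of each group 16 of these were still 2-fold lower and 2 higher, beside 24% and 13.3% of all genes. The median log2 fold change was -0.96, against -0.26 for all genes, and below it by 0.39 to 0.93 in the 17 alternatives. With each cell thinned to 1000000 reads, 31 of the 39 genes had a read in a smaller share of hypotonic than of isotonic cells and 7 in a larger share, where 53.8% and 39.5% of the 5960 genes did.

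Hypotonic cells also varied in how many genes they showed: 6 of the 12 had a read on fewer than 50% of all genes, as had 5 of the 16 isotonic cells. Among the 6 hypotonic and 11 isotonic cells at or above 50%, 15 of the 39 genes were 2-fold lower and 0 higher, with a median of -0.51 against -0.12 for all genes. In those cells the share of reads averaged 0.415% ± 0.0999 in hypotonic and 0.607% ± 0.211 in isotonic cells (SD over cells). This set of cells was chosen after the data had been seen.

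By complex, the hypotonic medians were -1.35 for complex IV, -1.08 for complex II, -0.96 for complex V and -0.52 for complex III. In complex IV, COX9 (YDL067C), a small subunit, lay between 0 and 81.1 CPM with a median of 14.7 in hypotonic cells and between 0 and 409 CPM with a median of 53.8 in isotonic cells (-2.08). COX13, COX5A, COX12 and COX4 were at -2.05, -1.92, -1.90 (0.85 against isotonic cells with E or G names) and -1.35. COX5B was higher, and is described with its paralog.

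In complex V the catalytic head was lower as well. ATP5, with the lowest ratio of the complex, lay between 0 and 535 CPM with a median of 37.3 in hypotonic cells and between 0.0181 and 3134 CPM with a median of 306 in isotonic cells (-2.27). ATP1 had medians of 217.4 CPM in hypotonic cells, against 551 CPM in isotonic cells (-1.70), ATP2 of 191 CPM in hypotonic against 1049 CPM in isotonic (-1.46) and ATP3 of 42.8 CPM in hypotonic against 293 CPM in isotonic (-1.94). ATP17 and ATP7 were at -1.98 and -1.07. In the cells with a read on at least 50% of genes ATP1 was at 0.021 and ATP2 at -0.395, so neither was 2-fold lower there.

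TIM11 and ATP18, small membrane subunits, were higher in hypotonic cells. TIM11 lay between 0 and 348 CPM with a median of 10.2 in hypotonic cells and between 0 and 61 CPM with a median of 1.26 in isotonic cells (2.12). ATP18 lay between 0 and 643 CPM with a median of 22 in hypotonic cells and between 0 and 275.3 CPM with a median of 5.74 in isotonic cells (1.40), and was at -0.57 in the cells with a read on at least 50% of genes.

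Most genes of the electron carriers upstream had log2 fold changes below 0: 3 of 3 in complex II, 8 of 9 in complex III and 2 of 2 for cytochrome c. Of the NADH dehydrogenase genes, 2 of 3 were above 0. CYC1 lay between 0 and 56.6 CPM with a median of 3.28 in hypotonic cells, against the isotonic median of 39.4 CPM (-2.61), and CYC7 was at -0.97. QCR10, QCR6 and COR1 of complex III were at -2.06, -1.97 and -1.39, and CYT1 at 0.82. QCR10 had a read in 5 of 12 hypotonic cells, with a median of 0 and a highest value of 108 CPM, against 12 of 16 isotonic cells, at a median of 3.16 and a highest value of 512.7 CPM. SDH3 lay between 0 and 556 CPM with a median of 27.2 in hypotonic cells and between 0 and 561 CPM with a median of 165 in isotonic cells (-1.08), and SDH2 was at -1.61, which became -0.91 without the highest cells and 0.67 in cells with a read on at least 50% of genes.

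NDE2 had the largest log2 fold change of the 39 genes in the hypotonic comparison, 3.21, but 87.2% of its hypotonic CPM came from cell F22X, at 4206 CPM. Without the highest cell of each group it was 0.97. F22X was also the hypotonic cell with the largest share of respiratory reads (0.697%) and had a read on 23.1% of all genes, the fewest of its group. Without it, 2 of the 39 genes were 2-fold higher and 16 lower.

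Several functions are encoded by pairs of paralogs whose balance could be compared per kb of coding length. COX5A (YNL052W) and COX5B (YIL111W) are alternative forms of subunit 5 of complex IV, of which the first is the aerobic and the second the hypoxic form. COX5A made up 5.27% of the pair in GS and 1.86% in isotonic cells of batch 2, 27.3% in AAS and 5.07% in hypotonic against 32.1% in isotonic cells of batch 1. COX5B thus had the larger mean in every group. By cell, COX5A exceeded COX5B in 8 of 16 isotonic cells of batch 1, with a median share of 46.9%. COX5A did so in 3 of 18 AAS cells, and in 1 of 10 hypotonic and 1 of 13 GS cells with reads of the pair. In isotonic cells of batch 2 only 4 had reads of the pair, and COX5A was higher in 1.

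In GS cells COX5A lay between 0 and 244 CPM with a median of 0 and COX5B between 0 and 4284 CPM with a median of 4.37, against 0 to 13.9 CPM and 0 to 591 CPM in isotonic cells, both with a median of 0. In hypotonic cells COX5A had a median of 0.63 CPM, against 26.7 CPM in isotonic cells, and COX5B a median of 97.8 CPM, against 30.3 CPM (1.13). The higher COX5B mean rests on cell F20X, which held 55.7% of it, and was at 0.64 without the highest cells and at -0.59 in cells with a read on at least 50% of genes. In AAS both genes stayed under 2-fold, at 0.32 for COX5A and 0.65 for COX5B.

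The window before COX5B holds ATTGTT on both strands and that before COX5A holds it once, shown here because Rox1 is a known repressor of COX5B in air (AACAAT is ATTGTT on the opposite strand):

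COX5B, chrIX:154986-155015, + strand: ttttgattttgtATTGTTcgataaggcaac

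COX5B, chrIX:155129-155158, + strand: actgttgcattaAACAATagaccaattatt

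COX5A, chrXIV:531618-531647, + strand: aaagttaaaaagAACAATcaattaaataag

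The second COX5B match ends 76 bases before its start codon, and the COX5A match 90 bases before its own.

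For cytochrome c, CYC1 made up 28.4% of the pair with CYC7 in AAS and 49.1% in hypotonic cells, against 75.5% in isotonic cells of batch 1. CYC1 exceeded CYC7 in 3 of 16 AAS cells and 6 of 9 hypotonic cells with reads of the pair, and in 11 of 15 isotonic cells. For the external NADH dehydrogenases, NDE1 made up 55.6% of the pair with NDE2 in AAS and 42.9% in hypotonic cells, against 90.6% in isotonic cells of batch 1. The hypotonic share again rests on F22X, since in the median hypotonic cell NDE1 made up 94.4%. In batch 2 NDE1 made up 5.51% in GS, and the isotonic cells had reads of NDE1 alone.

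**Figure D5:**
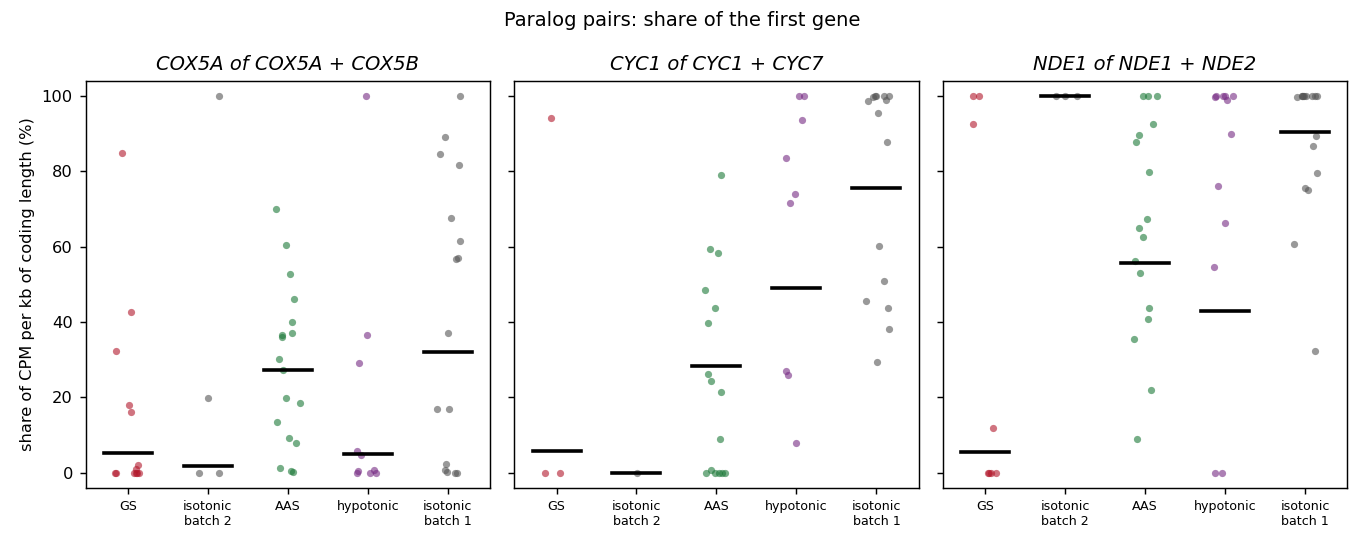
Share of the first gene of each pair in the pair's CPM per kb of coding length (percent, linear axis), 1 point per cell with reads of the pair, with a bar at the share of the group means. CYC1 lies at 28.4% in AAS and 49.1% in hypotonic against 75.5% in isotonic cells of batch 1, and COX5A at 5.27% in GS, where most cells lie near 0.

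Other genes that serve the same chain were taken from lists of known function. In GS, assembly factors for complexes II to V were mostly too rare to compare: 11 of 44 passed the filter, of which 5 were 2-fold higher and 0 lower, with a median of -0.10, where 44.1% and 26.2% of all genes were higher and lower. That share of higher genes is near the one over all genes, and the other 6, among them CYC3 (-0.48) and COX15 (-0.30), lay below 0, though 4 of them were above 0 without the highest cells. COX19, an assembly factor of complex IV, had reads in 9 GS cells and 0 isotonic cells and was at least 907-fold higher by summed reads. CBP4, an assembly factor of complex III, had reads in 7 GS cells and 1 isotonic cell. RCF2, a factor of the supercomplex of III and IV, averaged 84.5 CPM in GS and 1.24 CPM in isotonic cells, and SDH8, a complex II assembly factor, 88.9 CPM in GS against 34.7 CPM in isotonic. The mitochondrial ADP/ATP carrier PET9 stood at 552 CPM in GS and 145 CPM in isotonic cells (1.92), the phosphate carrier MIR1 at 168 CPM in GS against 75.8 CPM in isotonic (1.14) and the glycerol-3-phosphate dehydrogenase GUT2 at 121 CPM in GS against 23 CPM in isotonic (2.35). COQ4 and COQ5, of coenzyme Q synthesis, were at 2.31 and 1.89, and INH1, the inhibitor of ATP hydrolysis by ATP synthase, at 2.63.

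Regulators of these genes were rare in batch 2, with 3 of 10 compared. ADR1, an activator of genes for non-fermentable carbon sources, had reads in 11 of 21 GS cells and 0 of 17 isotonic cells and was at least 814-fold higher by summed reads. CAT8, an activator of gluconeogenic genes, averaged 237 CPM in GS and 10.4 CPM in isotonic cells (4.38). HAP1, the haem-responsive activator, was at -0.17. SHH4, a paralog of SDH4, had reads in 13 GS cells and 1 isotonic cell. Of 6 hypoxic genes listed, 3 passed the filter, and these were 2-fold higher in GS, as were 44.1% of all genes: TIR1, OLE1 and HEM13, encoding a cell wall protein, the fatty acid desaturase and an enzyme of haem synthesis, at 3.99, 2.91 and 2.79.

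In AAS, 22 of the 44 assembly factors were 2-fold higher and 3 lower (median 0.90), as were 8 of 11 genes of coenzyme Q synthesis and 0 lower (median 1.55), with COQ3 at 2.72 and COQ4 at 2.59. Over all genes 43.2% were higher and 13.8% lower, so the count of assembly factors lay near the share over all genes. Both medians lay above that of all genes, 0.74, and that of the 39 structural genes, -0.04. CYB2, cytochrome b2, which passes electrons from lactate to cytochrome c, was at 4.00, AAC3 and AAC1, minor ADP/ATP carriers, at 3.54 and 1.97, and INH1 at 1.85. SDH9, SHH3 and SHH4, paralogs of complex II subunits, were at 3.99, 3.06 and 2.21. Of the structural subunits outside the 39 genes, SDH1 of complex II was at 1.43, ATP19 of ATP synthase at -1.74 and COX26 of complex IV at 0.12. Of 9 regulators compared, 5 were higher and 1 lower: HAP5, HAP3 and HAP2, the DNA-binding subunits of the Hap complex, were at 3.53, 2.12 and 1.43, HAP1 at 2.07, and HAP4, its activating subunit, at -1.23 but -0.41 without the highest cells.

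In hypotonic cells 9 of the 44 assembly factors were 2-fold higher and 19 lower (median -0.58), where 21.2% and 30.1% of all genes were, and of these 5 were still higher and 12 lower without the highest cells. Of the 11 genes of coenzyme Q synthesis 4 were higher and 0 lower, with a median of 0.08. The structural subunit ATP19 of ATP synthase was at -2.27. Of 5 hypoxic genes compared, 3 were higher and 0 lower, beside the same 21.2% and 30.1% of all genes: DAN1, a cell wall protein gene, averaged 84.2 CPM in hypotonic against 0.0482 CPM in isotonic cells, HEM13 227 CPM in hypotonic against 74 CPM in isotonic (1.61), and ANB1, the hypoxic form of translation factor eIF5A, 11.2 CPM in hypotonic against 3.4 CPM in isotonic (1.47). HEM13 had a read in only 5 of 12 hypotonic cells, against 12 of 16 isotonic cells. DAN1 had a read in 9 hypotonic and 2 isotonic cells, and ANB1 in 10 and 12. HAP2 was at -1.60 and HAP5 at 2.62.

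Names of the isotonic cells of batch 1 fall into those that start with A and those that start with E or G, and the labels do not say what these letters stand for. The 39 genes held 0.625% ± 0.226 of the reads in 9 cells named A and 0.783% ± 0.542 in 7 named E or G (SD over cells). Against cells named A, the median of the 39 genes was -0.08 in AAS, where that of all genes was 0.80, and -1.03 in hypotonic cells, where it was -0.24. Against cells named E or G, it was 0.18 in AAS, where that of all genes was 1.25, and -0.46 in hypotonic cells, where it was 0.34. Against the E and G cells the cytochrome c pair gave medians of 0.37 (AAS) and 0.26 (hypotonic) where all isotonic cells gave -1.67 and -1.79. These medians join 2 genes that differed. CYC1 was no higher than -2.29 (AAS) and -1.71 (hypotonic) in any of the 17 alternatives, whereas CYC7 reached 4.12 and 3.40 among them.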

How the data were processed

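Full-length mRNA of single spheroplasts was sequenced as described. According to the submitters' notes and the methods of the study, the authors aligned reads with STAR 2.5.2 to the R64 genome and deposited HTSeq counts per gene and cell, not normalized. The 6420 gene entries were used. The 92 spike-in entries and 5 tallies were left out, and reads on no feature were a median of 3.17% of those and reads on genes. Cells left out by the study (33 of 117) were used only in alternatives. Its batch and kept lists gave these, and the labels gave the groups.

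Counts were divided by reads on genes (CPM). Named members and lists were chosen with earlier results of these data known. Values over cells are given, per comparison and complex, for the gene with the largest change that holds without the highest cell of each group, for paralog pairs and for genes opposite to their complex. Other listed genes are named when 2-fold without the highest cells, up to 4 per list. HAP1, CYC3 and COX15 in GS, HAP4, PET9 and DLD1 in AAS and other members with values over cells were chosen after their values were seen. No test was run, since each group is 1 sample. Intervals are exact Clopper-Pearson or Poisson-based at 95%. Alternatives covered pseudocounts, scaling, filters, thinning to 100000 reads and subsets of cells. Functions were tested on simulated data. Python 3.11.15, NumPy 2.4.6, pandas 2.3.3, SciPy 1.17.1, matplotlib 3.10.9, R 4.3.3, edgeR 4.0.16 (TMM) and DESeq2 1.42.0 (size factors) were used, and positions are those of RefSeq R64.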

Additional observations from a re-analysis of the deposited data

Results flagged for a closer look

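Among the cells that the quality filter of the study left out, GS cell Y501 gave 1.82% of its reads on genes to the 39 genes, above the highest isotonic cell of batch 2, at 1.22%. It had a read of 10 of the 39 genes and enters no main comparison. The 6 left-out GS cells named Y5, Y501 among them, ran from 0.000992% to 1.82%, with a median of 0.393%. The 20 left-out GS cells named Y2 ran from 0% to 1.74%, some on as few as 115 reads on genes. Their median was 0.231%, where the isotonic cells of batch 2 in the main comparison had 0.287%.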

How the results depend on the processing

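In every alternative the median of the 39 genes stayed above that of all genes in GS (by 1.47 to 2.81) and below it in AAS and hypotonic cells. Limits: each group is 1 sample, isotonic cells of batch 2 are shallow, and counts near 2-fold move with single cells. TMM scaling put the median of all genes in AAS at 0.091, and DESeq2 nearer to 0, against 0.74 by CPM. The causes of the changes below were not tested.

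In GS, the main count of 2 genes lower became 1 with all Y5 and Y7 cells, with mean log2(CPM + 1), without the highest cells, with a pseudocount of 10, and with summed reads unscaled or scaled by TMM, and 0 when thinned to 100000 reads. TIM11 turned to 0.53 (mean log2), 1.79 (without the highest cells), 0.99 (summed reads), 0.74 (DESeq2), 0.93 (TMM) and 3.98 (thinned).

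In AAS, the 5 genes higher became 24 with mean log2, 12 without the highest cells, 15 against cells named E or G, and 0 with DESeq2 and 0 with TMM scaling. The 6 lower became 3 with all mapped cells, 2 with mean log2, 2 without the highest cells, 3 against E or G, 18 with DESeq2 and 17 with TMM. The median became 1.39 with mean log2 and -0.96 with DESeq2. ATP15 turned to 0.80 and ATP5 to 0.41 with mean log2, QCR10 to 1.40 with mean log2, 0.20 without the highest cells and 0.18 against E or G, NDE2 to -0.82 (DESeq2) and -0.74 (TMM), RIP1 to -0.049 (DESeq2) and the cytochrome c median to 0.37 against E or G. CYC1 alone stayed at least 2-fold lower in every alternative.

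In hypotonic cells, the 4 genes higher became 0 in cells with a read on at least 50% of genes, 9 against E or G, and 2 without the highest cells, against A, with summed reads, with TMM and without F22X. In the cells with at least 50% of genes ATP1 turned to 0.021, ATP18 to -0.57, COX5B to -0.59, NDE2 to -0.51 and SDH2 to 0.67. Against E or G, COX12 turned to 0.85 and the cytochrome c median to 0.26, while CYC1 alone stayed at least 2-fold lower. The sets without F22X or G56 and with at least 50% of genes were chosen after seeing the data. No paired analysis was possible because no cultures are named and cells of different groups share no replicate identity.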
